A study of Mus musculus with 11 samples.

Results

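The interleukin-6 (IL-6) family genes were followed in the hearts of infarcted and sham-operated mice. The group comprises 10 genes of the 55421 genes in the count table, found by their symbols: the cytokine genes Il6, Il11, Lif, Osm and Clcf1 and the receptor chain genes Il6st, Osmr, Lifr, Il11ra1 and Il6ra. RNA came from 11 female C57BL/6J mice, 8 weeks of age. In 8 mice the left anterior descending coronary artery was permanently ligated to cause a myocardial infarction (MI), and the infarct with its border zone was taken on day 3. Of these, 4 mice (A105, A127, A128 and A129) received the solvent DMSO, and 4 (A116, A117, A119 and A120) received GI254023X (A10i) at 100 mg/kg in DMSO, which blocks the metalloprotease ADAM10 through a hydroxamate group, both from osmotic minipumps. The 3 sham mice (S1 to S3) had no ligation, received DMSO and gave healthy heart tissue, so that infarction and the kind of tissue sampled cannot be told apart. No sham mouse with A10i was analysed here.

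Each library was 1 mouse, with 21702623 to 29511768 counted fragments. Each of the 15 pairs of mice within a group differed by more than counting error (chi-square divided by its degrees of freedom, 4.04 to 60.9). The heart label matched its markers: all 10 cardiomyocyte genes checked had counts in every group, with summed normalised counts of 2555100 to 2614300 in sham, 1199800 to 1730000 in DMSO and 1490200 to 2027500 in A10i hearts. In bulk tissue, fewer cells of a type and less RNA per cell cannot be told apart.

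Cytokines of this family signal through receptor complexes that contain gp130, the product of Il6st. IL-6 and IL-11 first bind their own alpha receptors (Il6ra, Il11ra1), whereas leukemia inhibitory factor (Lif), oncostatin M (Osm) and cardiotrophin-like cytokine factor 1 (Clcf1) use gp130 paired with the LIF receptor (Lifr) or, for oncostatin M, the oncostatin M receptor (Osmr). The complexes activate Janus kinases and the transcription factor STAT3, which induces its own inhibitor Socs3 and many acute phase genes. In the heart the family is known for cardiomyocyte survival and growth after injury, IL-11 also for effects on fibroblasts, and the IL-6 receptor is known as a protein that ADAM10 and ADAM17 can release from the cell surface.

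Sequences just before the start sites are shown for the 3 cytokine genes with a match to the AP-1 motif, which is bound by Fos and Jun proteins. RefSeq (GRCm38.p6) held windows for 8 of the 10 genes, 11 windows in all. Each window covers the 250 bases before an annotated start and is written 5′ to 3′ on the gene's strand, with matches to AP-1 (TGANTCA) or to the NF-kB motif in capitals. The windows are chr5:30012864-30013113 on the plus strand for Il6, chr7:4778142-4778391 on the minus strand for a start inside the annotated Il11 gene, and chr11:4257318-4257567 on the plus strand for Lif.
Il6: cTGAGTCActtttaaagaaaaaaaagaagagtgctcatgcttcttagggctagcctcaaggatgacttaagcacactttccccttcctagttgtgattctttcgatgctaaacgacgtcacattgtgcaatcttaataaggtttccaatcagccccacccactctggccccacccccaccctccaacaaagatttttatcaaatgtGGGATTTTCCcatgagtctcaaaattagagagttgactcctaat
Il11: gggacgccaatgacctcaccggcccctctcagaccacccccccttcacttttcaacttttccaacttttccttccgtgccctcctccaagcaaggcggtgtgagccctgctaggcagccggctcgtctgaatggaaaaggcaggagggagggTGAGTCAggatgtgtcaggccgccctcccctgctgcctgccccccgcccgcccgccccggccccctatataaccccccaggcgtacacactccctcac
Lif: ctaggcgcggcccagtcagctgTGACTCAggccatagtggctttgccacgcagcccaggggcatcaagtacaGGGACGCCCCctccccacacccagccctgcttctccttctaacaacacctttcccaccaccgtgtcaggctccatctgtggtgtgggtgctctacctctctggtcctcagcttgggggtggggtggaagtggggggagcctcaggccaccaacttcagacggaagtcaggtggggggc
AP-1 was searched on both strands and had a match in 3 of the 8 genes (Il6, Il11 and Lif), against 6.73% of all 32544 distinct windows. NF-kB, also on both strands, had a match in 2 of the 8 genes (Il6 and Lif), against 7.28% of all windows. The letters of a cAMP response element (TGACGTCA, both strands), a STAT site (TTCNNNGAA, both strands) and a TATA box (TATAAA, gene strand) were in 0 of the 8, against 1.55%, 7.04% and 7.55% of all windows. The matches in the printed windows did not overlap each other. A gene counted as matched if any of its windows held the letters, whereas the share of all windows is per single window. The 2 figures are therefore not on the same unit. For Il11 only the printed window matched AP-1, and its other window had no match. A match of letters is a description and was not tested as a binding site.

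The cytokine genes were low or nearly silent in sham hearts and higher in every infarcted heart. All 5 rose in DMSO mice against sham, and per length Clcf1 was then the highest of them and Osm the lowest. In A10i mice each of the 5 lay between the sham and the DMSO mean. Values below are normalised read counts, the counts of each mouse scaled by edgeR's TMM factors to a common library size, in the order of the mice given above.

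Il6 (chr5:30013114-30019981, plus strand, GRCm38) encodes the founding cytokine of the family. It had 0, 0 and 1.03 normalised counts in the sham mice, 49.6, 49.7, 187 and 82.3 in the DMSO mice and 45.6, 31.7, 22.2 and 36.8 in the A10i mice. Every infarcted mouse was above every sham mouse, DMSO mouse A128 stood highest, and no A10i mouse reached the lowest DMSO mouse. With 1 raw count in all sham libraries, the DMSO level was 278 times that of sham (95% exact interval 49.6 to 10996, counting error only), from 406 counts, and the A10i level was 99.5 times (17.5 to 3959), from 130 counts.

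Il11 (chr7:4772373-4782859, minus strand) encodes interleukin-11. Its normalised counts were 4.43, 2.87 and 1.03 in sham, 61.5, 18.9, 82.5 and 84.3 in DMSO and 19.3, 7.91, 8.44 and 6.90 in A10i hearts. The highest A10i mouse (A116) was just above the lowest DMSO mouse (A127), while the other A10i mice were below all DMSO mice and above all sham mice.

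Lif (chr11:4257557-4272514, plus strand) and Osm (chr11:4236420-4241026, plus strand) are neighbours on chromosome 11. Lif had 7.75, 7.65 and 10.3 normalised counts in sham, 49.6, 52.3, 89.3 and 89.3 in DMSO and 58.8, 27.7, 36.9 and 31.0 in A10i hearts. For Lif, only A10i mouse A116 reached into the DMSO range. Osm had 1.11, 0.956 and 0 normalised counts in sham, 17.3, 17.1, 23.8 and 30.1 in DMSO and 26.4, 17.8, 2.11 and 5.75 in A10i hearts. The A10i mice thus fell apart for Osm, with A116 and A117 in the DMSO range and A119 and A120 below it. From 94 and 51 counts against 2 in sham, the Osm level was 32.2 times that of sham in DMSO (8.66 to 269, counting error only) and 19.5 times in A10i mice (5.13 to 165).

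Clcf1 (chr19:4214238-4223490, plus strand) encodes cardiotrophin-like cytokine factor 1. It had 39.9, 52.6 and 57.7 normalised counts in sham, 197, 150, 190 and 212 in DMSO and 96.3, 98.9, 87.6 and 71.3 in A10i hearts. The 3 groups did not overlap: sham was lowest, A10i in the middle and DMSO highest. Clcf1 shares 311 exon bases with AC109138.7, a gene on the same strand that had 0 counts.

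**Figure D1:**
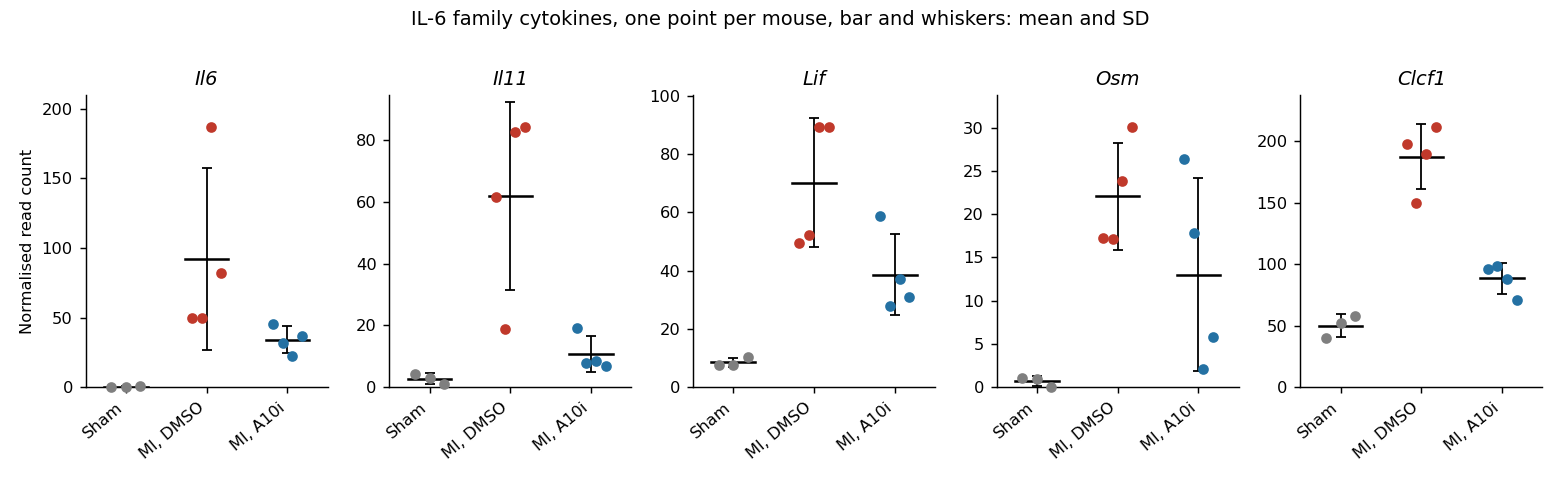
Normalised read counts (y axis, linear from 0) of the 5 cytokine genes in each mouse of the sham, DMSO and A10i groups (x axis), with the mean and SD of each group. For Clcf1 the 3 groups are separate, with the A10i mice between 71.3 and 98.9, whereas for Osm the A10i mice reach from 2.11 to 26.4.

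Among the receptor chains, Osmr rose after infarction and the other 4 did not pass the test in either direction. Osmr (chr15:6813577-6874969, minus strand), the chain that makes gp130 responsive to oncostatin M, had 621, 684 and 570.2 normalised counts in sham, 2185, 1755, 1936 and 2060.0 in DMSO and 1781, 1842, 1291 and 1449 in A10i hearts. All infarcted mice were above all sham mice, and A10i mice A119 and A120 were below every DMSO mouse and A116 and A117 within the DMSO range.

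Lifr (chr15:7090614-7197489, plus strand) encodes the alternative partner of gp130. It had 1902, 2139 and 2096 normalised counts in sham, 1429.7, 1844, 1617 and 1215 in DMSO and 1566, 1885, 1764 and 2154 in A10i hearts. The DMSO mice were all below the sham mice, and the A10i mice overlapped both groups.

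Il6st (chr13:112464070-112510086, plus strand), the shared signalling chain, had 6424, 6576 and 6376 normalised counts in sham, 7359.9, 7113, 8007 and 7683 in DMSO and 6903, 7543, 6687 and 6088 in A10i hearts. The DMSO mice were above all sham mice by a small margin, and the A10i mice overlapped both groups. Il11ra1 (chr4:41699989-41769474, plus strand), the IL-11 receptor, had 1386, 1394 and 1525 in sham, 1370.4, 1277, 1358 and 1149.9 in DMSO and 1174, 1343, 1386 and 1452 in A10i hearts. Its DMSO mice were below sham by a narrow gap. Il11ra1 has a near-identical copy, Il11ra2, to which uniquely aligned reads could be lost, and shares 8 exon bases with Ccl27a on the other strand, so its level is uncertain.

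Il6ra (chr3:89864059-89913196, minus strand), the IL-6 receptor, had 286, 254 and 295 normalised counts in sham, 348, 378, 294 and 474 in DMSO and 387, 406, 287 and 348 in A10i hearts. Its 3 groups overlapped.

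**Figure D2:**
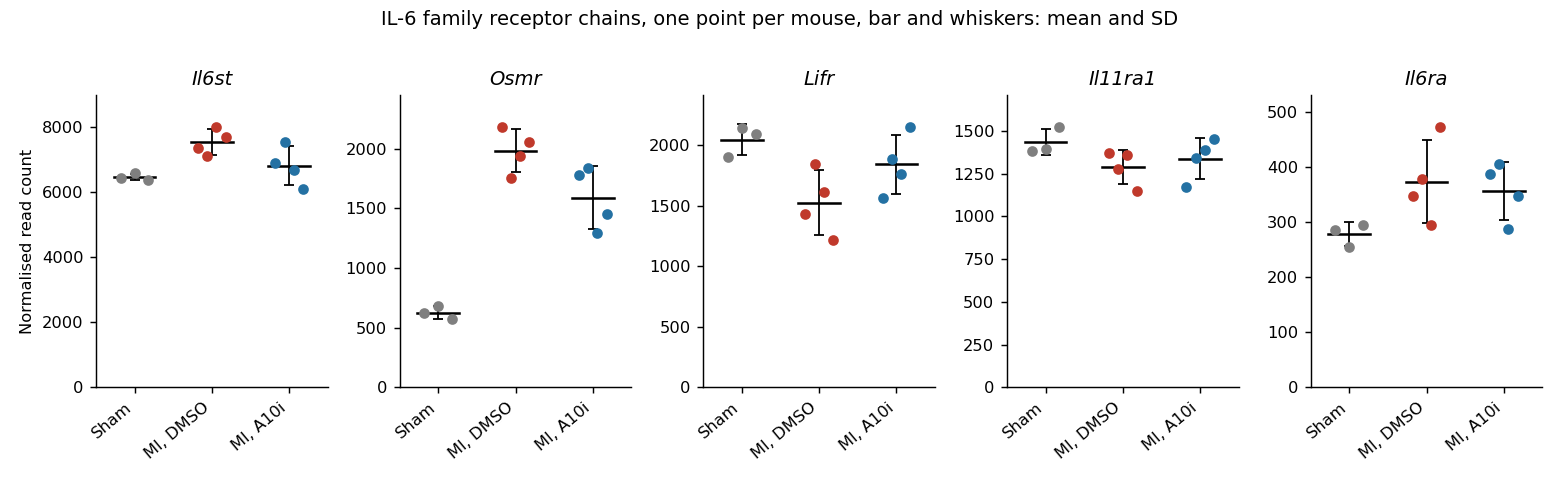
Normalised read counts (y axis, linear from 0) of the 5 receptor chain genes in each mouse of the 3 groups (x axis), with the mean and SD of each group. Osmr is higher in every infarcted mouse (1291 to 2185) than in the sham mice (570.2 to 684), while Il6st, Lifr, Il11ra1 and Il6ra did not pass the test.

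Infarction with DMSO was tested against sham in a model over all 17117 genes that passed the low-count filter (edgeR quasi-likelihood test, two-sided, Benjamini-Hochberg adjustment, threshold 0.01). Of the 10 members 6 rose, all 5 cytokines and Osmr, where 12.9% of all genes tested did, and 0 fell, where 9.6% did. Il6, Il11, Lif and Osm had at most 10 raw counts in any sham mouse and met the low-count filter only through the DMSO mice. They could be tested only because they were high there, so their rises cannot be weighed against these shares. With at least 10 counts in every library, only Clcf1 and Osmr of the 6 were tested, and both rose. The log2 fold change of Il11 was 4.43 ± 0.68 (SE, adjusted p = 0.00132), that of Lif 3.01 ± 0.34 (adjusted p = 0.000297) and that of Clcf1 1.89 ± 0.19 (adjusted p = 0.00018). Osmr rose by 1.66 ± 0.10 (adjusted p = 1.88e-05). Il6 and Osm also passed, with adjusted p of 0.000708 and 0.000432, and their size is given by the counting ratios above. The fitted differences of the chains that did not pass were 0.22 ± 0.09 for Il6st (adjusted p = 0.0689), 0.42 ± 0.16 for Il6ra (adjusted p = 0.0556), -0.43 ± 0.13 for Lifr (adjusted p = 0.0234) and -0.16 ± 0.08 for Il11ra1 (adjusted p = 0.156). Lifr would pass at a threshold of 0.05, without the filter on low counts (adjusted p = 0.00892) or without DMSO mouse A127 (adjusted p = 0.00824), and Il11 missed the threshold without sham mouse S2 (adjusted p = 0.0101) and in limma-voom (adjusted p = 0.0117).

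In A10i mice against sham, 4 of the 8 members tested rose (Il6, Lif, Clcf1 and Osmr), where 13.7% of 16971 genes did, and 0 fell, where 9.11% did. Il6 and Lif met the low-count filter only through the A10i mice, so their rises cannot be weighed against these shares. The log2 fold change was 2.16 ± 0.36 for Lif (adjusted p = 0.00143), 0.82 ± 0.20 for Clcf1 (adjusted p = 0.00808) and 1.35 ± 0.13 for Osmr (adjusted p = 0.000233), and the adjusted p of Il6 was 0.000226. Il6ra differed by 0.36 ± 0.13 (adjusted p = 0.0413) and would pass at a threshold of 0.05 or without A10i mouse A119 (adjusted p = 0.00774). Il6st differed by 0.08 ± 0.09 (adjusted p = 0.492), Lifr by -0.15 ± 0.10 (adjusted p = 0.264) and Il11ra1 by -0.10 ± 0.08 (adjusted p = 0.362). Il11 and Osm had too few counts for the filter here. In edgeR without the filter Osm passed (adjusted p = 0.00444) and Il11 did not (log2 fold change 1.91, adjusted p = 0.0176). Osm missed the threshold in edgeR with all 11 libraries in one fit (adjusted p = 0.0101) and when each sham mouse was left out (adjusted p between 0.0544 and 0.0686). The call of Clcf1 against sham was lost when any of the sham mice, or A10i mouse A117 or A119, was left out (adjusted p between 0.0150 and 0.0403), and that of Lif without sham mouse S2 (adjusted p = 0.01001). Both comparisons share the sham mice, and each shares its infarcted mice with the comparison of A10i with DMSO.

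**Figure D3:**
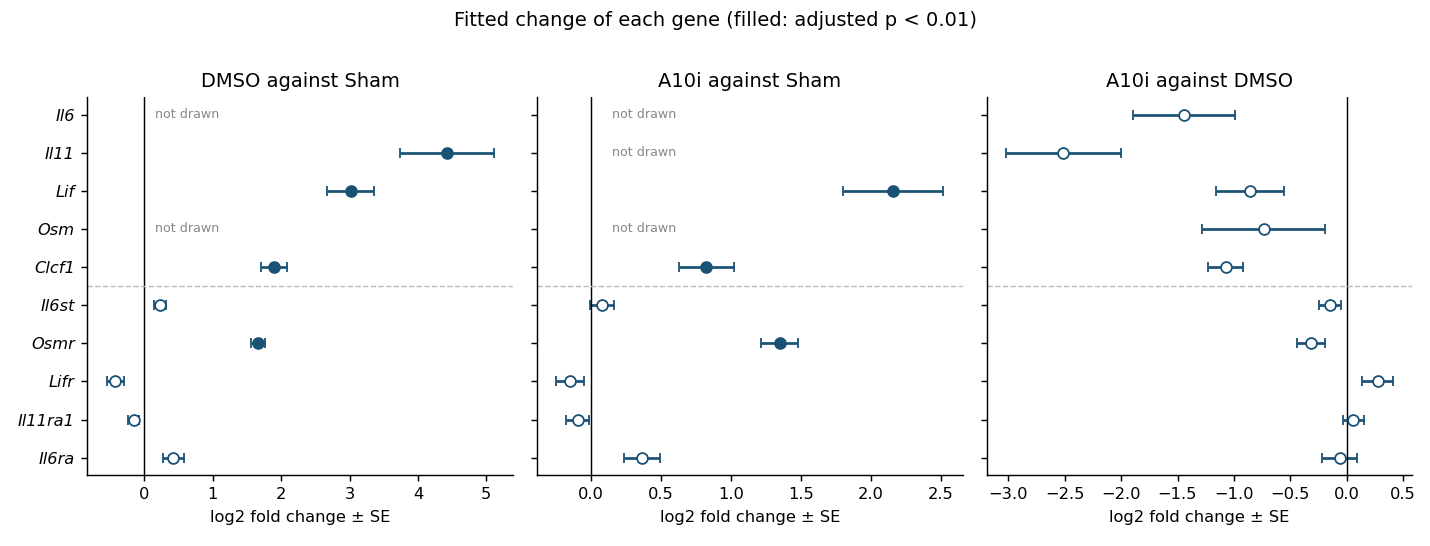
Fitted log2 fold changes (x axis, edgeR, each panel with its own scale) of the 10 genes in the 3 comparisons, with SE as bars and filled points for an adjusted p under 0.01. Il6 and Osm are not drawn against sham, where they had 1 and 2 raw counts, nor is Il11 in A10i against sham, where it was not tested. In A10i against DMSO all 5 cytokine genes lie left of 0 and no point is filled.

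Whether ADAM10 inhibition altered the family after infarction is addressed by A10i against DMSO mice. Cytokine means were lower with A10i, by the most for Il11, while the receptor chain means were 0.802 to 1.21 times their DMSO means. The A10i mean was 0.172 times the DMSO mean for Il11, 0.370 times for Il6, 0.473 times for Clcf1, 0.551 times for Lif and 0.589 times for Osm. The ratio of Il6 rests in part on DMSO mouse A128, without which its log2 fold change was -0.82, in place of -1.44. For the receptors the ratio of the A10i to the DMSO mean was 0.802 for Osmr, 0.902 for Il6st, 0.956 for Il6ra, 1.04 for Il11ra1 and 1.21 for Lifr.

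With edgeR, 0 of the 10 members passed the adjusted threshold of 0.01, and of all 16792 genes tested 0% were called higher and 0% lower. At an adjusted p under 0.05, 0.0536% of genes were lower, with 0 members among them. DESeq2 called 2 members lower at 0.01, Clcf1 (adjusted p = 2.09e-06) and Il11 (adjusted p = 0.000258), limma-voom called 0, and edgeR without the filter called Clcf1 (adjusted p = 0.00397). At an unadjusted p under 0.05, 5 members were lower (Il6, Il11, Lif, Clcf1 and Osmr), where 6.73% of all genes were, and 0 were higher, where 7.1% were. Il11, with 6 to 19 raw counts in the A10i mice, met the low-count filter through the DMSO mice. Its lower level cannot be weighed against this share.

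Clcf1 had the smallest p of the family, at a log2 fold change of -1.07 ± 0.16 (SE, edgeR adjusted p = 0.0514). Over the settings tried its adjusted p lay between 6.72e-07 and 0.197, and its log2 fold change between -1.17 and -0.99 when each mouse was left out in turn. Il11 followed with -2.51 ± 0.51 (adjusted p = 0.0931, between 0.000182 and 0.282 over the settings tried). Il6 differed by -1.44 ± 0.45 (adjusted p = 0.216). Lif differed by -0.86 ± 0.30 (adjusted p = 0.245). Osm differed by -0.74 ± 0.55 (adjusted p = 0.594), and by -1.32 without A10i mouse A116.

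Of the receptor chains, Osmr differed by -0.32 ± 0.12 (edgeR adjusted p = 0.285) and Lifr by 0.27 ± 0.14 (adjusted p = 0.417). For Il6st the difference was -0.15 ± 0.10 (adjusted p = 0.550), for Il11ra1 0.06 ± 0.09 (adjusted p = 0.828) and for Il6ra -0.06 ± 0.16 (adjusted p = 0.899).

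Of the members, 2 did not overlap between the A10i and DMSO mice, Il6 and Clcf1, both lower, against 4.11% of all genes that were lower without overlap and 4.01% that were higher. An exact permutation test of each gene over mice (log2 normalised counts plus 0.5, two-sided) gave p = 0.0286 for Il6 and Clcf1, the smallest that 4 against 4 mice allow, p = 0.0571 for Il11 and p = 0.0857 for Lif, Osmr and Il6st. The same exact permutation test gave p = 0.257 for Osm, 0.171 for Lifr, 0.514 for Il11ra1 and a larger p for Il6ra. With 3 sham mice against 4 the smallest p is 0.0571, so that test could not reach 0.05 there.

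Markers of other cells moved in the same comparison. All 8 of the 15 neutrophil markers with enough counts were lower in A10i mice at an unadjusted p under 0.05, and their summed normalised count, led by S100a9, was 45.9 to 79.7 in sham, 2154 to 4067 in DMSO and 397 to 1485 in A10i hearts. Elane was at 0 in every group, Cxcr1 in the sham and A10i groups, and Ly6g and Trem1 in the sham group. Monocyte and macrophage markers summed to 9588 to 10436 in sham, 15880.0 to 26617 in DMSO and 20593 to 38711 in A10i hearts, with 5 of 12 higher in A10i at an unadjusted p under 0.05 and 0 lower. Fibroblast markers summed to 31546 to 34032, 50977 to 166380 and 127020 to 231900 in the same order, with 3 of 10 higher at that p and 0 lower. Of all genes, 7.1% were higher and 6.73% lower at that p. Endothelial markers had 2 of 10 higher and 0 lower, and cardiomyocyte markers 1 of 10 higher and 0 lower. The tested lymphocyte, platelet and red blood cell markers had 0 in either direction. The part of these cells in the cytokine values was not tested. A10i mouse A116 had the highest Il6, Il11, Lif and Osm of its group. It also had that group's highest neutrophil, monocyte and macrophage, and fibroblast sums, 1485, 38711 and 231900.

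Levels of different genes were compared per length, as TMM-scaled fragments per kilobase of exon (FPKM). In sham hearts Il6st was highest at 22.8 ± 0.37 FPKM (SD, n = 3), followed by Il11ra1 at 12.5 ± 0.68, Lifr at 7.42 ± 0.46, Osmr at 2.02 ± 0.18, Il6ra at 1.26 ± 0.096 and Clcf1 at 0.514 ± 0.094 FPKM. These neighbours did not overlap. Lif (0.0770 FPKM), Il11 (0.0522), Osm (0.0118) and Il6 (0.00553) closed the order, and their ranges overlapped between Lif and Il11 and between Osm and Il6.

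After infarction with DMSO the order changed in its middle and at its lower end. Osmr reached 6.40 ± 0.59 FPKM (SD, n = 4) beside Lifr at 5.54 ± 0.97, with overlapping ranges, and Clcf1 reached 1.92 ± 0.27 beside Il6ra at 1.69 ± 0.34, also overlapping. Il6 followed at 1.48 ± 1.05, Il11 at 1.16 ± 0.57, Lif at 0.630 ± 0.20 and Osm at 0.380 ± 0.11 FPKM, each overlapping its neighbour in this order. In A10i mice Lifr (6.68 ± 0.89 FPKM, SD, n = 4) was above Osmr (5.13 ± 0.85) in mean with overlap, Il6ra (1.62 ± 0.24) was above Clcf1 (0.909 ± 0.13) without overlap, and Il11 had the lowest mean (0.200 ± 0.11).

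Ratios within a mouse do not depend on the scaling between mice and are given as a description. Per length, the ratio of Osmr to Lifr was 0.291, 0.284 and 0.242 in the sham mice, 1.36, 0.847, 1.07 and 1.51 in DMSO and 1.01, 0.869, 0.651 and 0.598 in A10i hearts. Every infarcted mouse was above every sham mouse, and the A10i and DMSO mice overlapped through A116 and A117 against A127. Osmr to Il6st was 0.0886 on average in sham, 0.241 in DMSO and 0.214 in A10i hearts, and Lifr to Il6st was 0.326, 0.210 and 0.282. Il6ra to Il6st was 0.0554, 0.0638 and 0.0674, with overlap of the 3 groups.

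**Figure D4:**
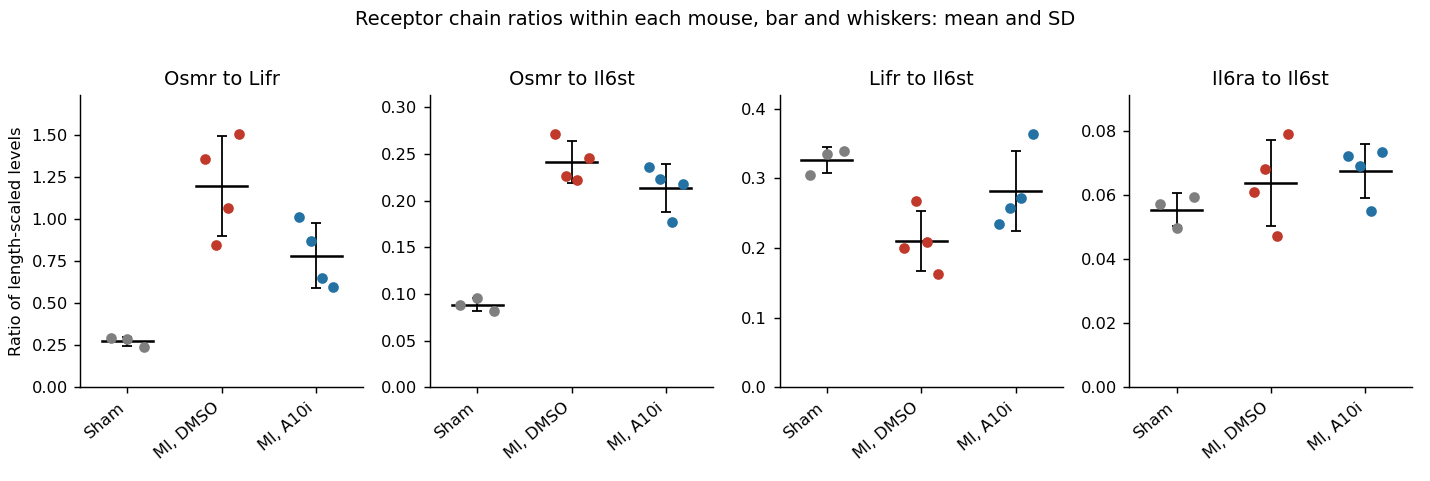
Ratios of length-scaled receptor chain levels (y axis, linear from 0) in each mouse of the 3 groups (x axis), with the mean and SD of each group. The ratio of Osmr to Lifr is at most 0.291 in sham mice and at least 0.598 in infarcted mice.

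Other ligands and chains of the family were in part too low to test. Of 11 such genes 6 passed the filter. Cntfr, the ciliary neurotrophic factor receptor, had a mean of 88.2 ± 16.3 normalised counts (SD, n = 3) in sham, 64.3 ± 5.01 (n = 4) in DMSO and 106 ± 34.3 (n = 4) in A10i hearts, with 0.72 ± 0.23 in A10i against DMSO (unadjusted p = 0.00903, edgeR adjusted p = 0.201). Ebi3, a subunit of interleukin-27, and Il11ra2 differed by 0.55 and 0.07 in DMSO against sham and by -0.05 and -0.21 in A10i against DMSO, none past the test.

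Among 12 genes for kinases, STAT factors and adaptors below gp130, Stat3 and Shc1 rose and Stat5a, Stat5b and Ptpn11 fell in DMSO mice against sham. Stat3, the main transcription factor of the pathway, had a mean of 4052 ± 177 normalised counts in sham, 7572 ± 1093 in DMSO and 6204 ± 1016 in A10i hearts, a rise of 0.90 ± 0.12 in DMSO (log2, adjusted p = 0.000611) and of 0.62 ± 0.12 in A10i mice (adjusted p = 0.0026). Stat5a fell by 0.61 on the log2 scale (adjusted p = 0.000737) in DMSO mice. In A10i against DMSO 0 of the 12 had an unadjusted p under 0.05, and the smallest p belonged to Jak2 (-0.18), Stat3 (-0.29) and Ptpn11 (0.22 on the log2 scale).

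Feedback inhibitors of the pathway rose in part. Of 8 genes 4 rose in DMSO and 4 in A10i hearts against sham (Socs1, Socs3, Ptpn2 and Ptpn6), and 0 fell. Of all genes tested, 12.9% rose and 9.6% fell in DMSO hearts, and 13.7% rose and 9.11% fell in A10i hearts. Socs3, which binds gp130 and blocks its kinases, had a mean of 91.1 ± 17.0 normalised counts in sham, 1144 ± 333 in DMSO and 553 ± 182 in A10i hearts. It rose by 3.64 ± 0.25 in DMSO (log2, edgeR adjusted p = 5.6e-05) and by 2.60 ± 0.30 in A10i mice (adjusted p = 0.000542). Between A10i and DMSO it differed by -1.05 ± 0.27 (unadjusted p = 0.0032, edgeR adjusted p = 0.147), Ptpn2 by -0.33 ± 0.10 (unadjusted p = 0.00784, edgeR adjusted p = 0.193) and Socs2 by 0.09 ± 0.09 (edgeR adjusted p = 0.698). Ptpn6, a phosphatase of blood cells, had 157 ± 12.3, 415 ± 121 and 454 ± 180 normalised counts in the 3 groups.

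Genes widely described as induced through STAT3 were higher after infarction. Of the 20 listed 18 were tested, and 17 rose in DMSO mice and 15 in A10i mice against sham, with 0 fallen. Of all genes tested, 12.9% rose and 9.6% fell in DMSO mice, and 13.7% rose and 9.11% fell in A10i mice. Saa3, with 4 raw counts in all sham mice, met the low-count filter only through infarcted mice. The list's median log2 fold change was 2.84 in DMSO and 2.17 in A10i hearts, where that of all genes was 0.0021 and -0.0054. Ccl2, a monocyte chemokine, Junb, a subunit of AP-1, and Serpina3n, an acute phase protease inhibitor, had the smallest p in DMSO mice, with log2 fold changes of 5.14 ± 0.22, 2.41 ± 0.12 and 5.64 ± 0.27 (edgeR adjusted p of 1.07e-05, 1.07e-05 and 1.15e-05). Other pathways induce these genes as well.

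Between A10i and DMSO mice 0 of these 18 passed the adjusted threshold, and their median was -0.41 where that of all genes was 0.0034. At an unadjusted edgeR p under 0.05, 11 were lower, where 6.73% of all genes were, and 0 were higher, where 7.1% were. The list was chosen with earlier results of these data known. The count is therefore a description and was not tested as a set. Cebpb, a transcription factor of the acute phase, had 1828 ± 209.9 normalised counts in sham, 2596 ± 160.4 in DMSO and 1827 ± 203 in A10i hearts, a difference of -0.50 ± 0.10 (edgeR adjusted p = 0.0802). Junb (-0.62 ± 0.15) and Myc (-1.02 ± 0.25) came next in A10i against DMSO, with adjusted p of 0.139 and 0.14 in edgeR. Not all moved this way: Tnc, Hp and Lbp had positive differences of 0.32, 0.47 and 0.24 in A10i against DMSO, with unadjusted p above 0.05. These 3 were picked after their values were seen.

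**Figure D5:**
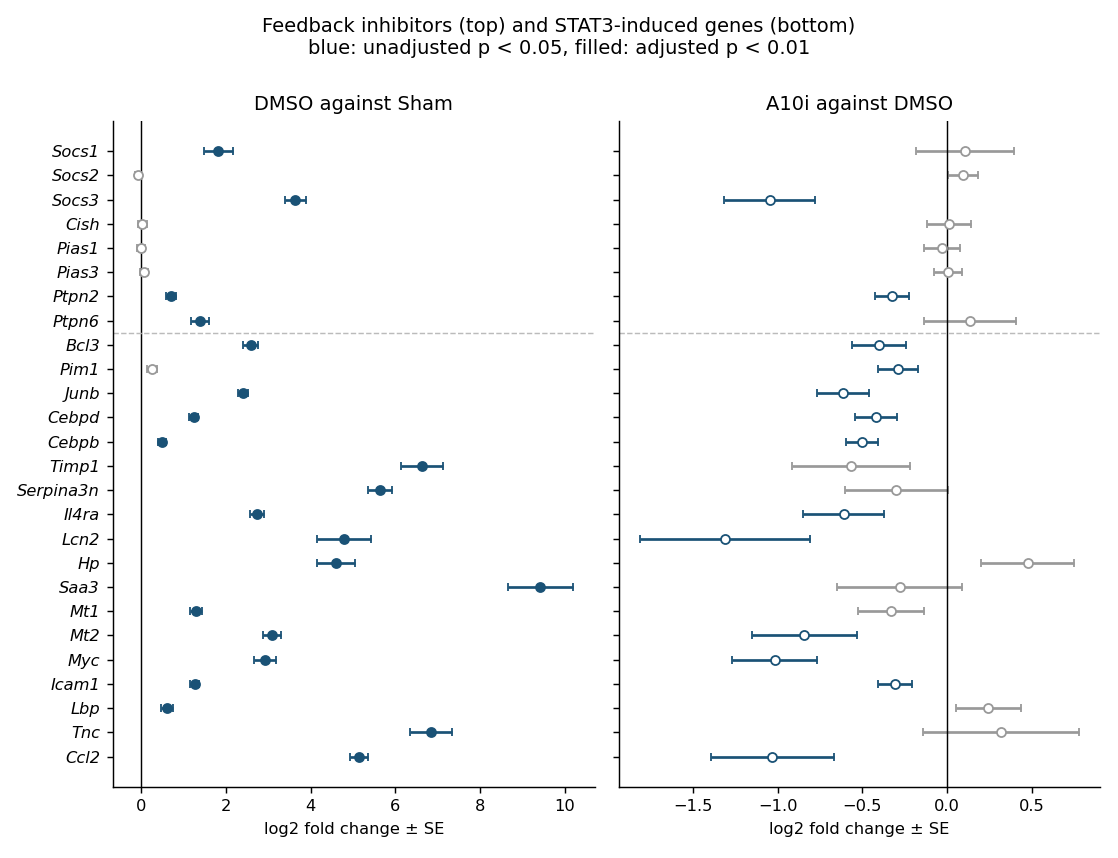
Fitted log2 fold changes with SE (x axis, edgeR, each panel with its own scale) of 8 feedback inhibitors (above the dashed line) and 18 STAT3-induced genes (below it) in DMSO against sham and in A10i against DMSO. Filled points, an adjusted p under 0.01, are found in the left panel only. Blue open points on the right mark an unadjusted p under 0.05, 2 of them inhibitors and 11 STAT3-induced genes. Of all genes tested there, 6.73% were lower and 7.1% higher at that p.

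The proteases that can release family receptors were measured with them. Adam10, the target of the inhibitor, had a mean of 1461 ± 60.4 normalised counts in sham, 1798 ± 419 in DMSO and 1907 ± 281 in A10i hearts, and Adam17 had 1231 ± 22.8, 1204 ± 138 and 1347 ± 177. Adam10 did not differ past the test in DMSO against sham (0.30 ± 0.16, edgeR adjusted p = 0.164) or in A10i against DMSO (0.09 ± 0.16, adjusted p = 0.853), nor did Adam17 (-0.04 ± 0.10 and 0.16 ± 0.11). Both genes of the inactive rhomboids that guide ADAM17 rose in DMSO mice, Rhbdf2 by 0.41 ± 0.09 (adjusted p = 0.00654) and Rhbdf1 by 0.37 ± 0.09 (adjusted p = 0.00925). Rhbdf2 had 435 ± 25.6, 579 ± 39.2 and 439.7 ± 39.2 normalised counts in sham, DMSO and A10i mice, with -0.40 ± 0.09 in A10i against DMSO (unadjusted p = 0.00157, edgeR adjusted p = 0.117). Enzyme activity and shed receptors are not measured by RNA counts.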

How the data were processed

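The poly(A) RNA of 11 mouse hearts was sequenced as strand-specific paired-end libraries. The deposited values are raw counts per gene: the authors mapped the reads to mm10 with GSNAP and used featureCounts (2.0.1) to count those with a unique alignment to an Ensembl gene, with no normalization. The strand setting of the counting is not given in the sources used here, so reads of overlapping genes on opposite strands cannot be told apart. From the table, 92 spike-in rows (397 counts) were left out, and GENCODE M21 gave symbols and positions (GRCm38). Only the libraries of the 2 groups compared entered each fit in edgeR 4.0.16 (R 4.3.3) with filterByExpr, TMM factors and the robust quasi-likelihood test, two-sided, with Benjamini-Hochberg adjustment over all genes tested and a threshold of 0.01. The script was tested on simulated data. Alternatives were DESeq2 1.42.0, limma-voom 3.58.1, RLE factors, library size alone, no filter, at least 10 counts in every library, a threshold of 0.05, all 11 libraries in one fit and leaving out each mouse. A DESeq2 fit of all 11 libraries was added after seeing the data. Members and gene lists were chosen with earlier results of these data known. From each pathway list up to 3 genes with the smallest p in A10i against DMSO and up to 3 in DMSO against sham are named, with Adam10 and Adam17 in any case, and Shc1, Stat5b, Socs1, Tnc, Hp and Lbp were named after their values were seen. Some genes that the rule names are not reported here. Motifs were searched in RefSeq promoter windows.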

Additional observations from a re-analysis of the deposited data

Results flagged for a closer look

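Of 20 sets of 4 mice examined, 10 genes in the DMSO and in the A10i group, 1 held a mouse far from the others. Il11 in A10i mouse A116 had 19.3 normalised counts, where the other A10i mice had 6.90 to 8.44, and this gap took up 0.875 of the group's range, above Dixon's 95% critical value for 4 samples. Chance flags about 1 in 20 such sets. Without that mouse the log2 fold change of Il11 in A10i against DMSO was -2.96 with an edgeR adjusted p of 0.0662.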

How the results depend on the processing

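Against sham, the counts of members that rose (6 in DMSO, 4 in A10i mice) fell to 2 in each comparison when a gene needed at least 10 counts in every library, since Il6, Il11, Lif and Osm were then not tested. Leaving out each mouse gave 5 to 6 members in DMSO and 2 to 4 in A10i mice, the lowest in both without sham mouse S2. The count of members lower in DMSO against sham was 1 in place of 0 at a threshold of 0.05 and without the filter, and 0 to 1 when each mouse was left out. The members lower in A10i against DMSO, 0 in edgeR, were 2 in DESeq2, 1 in edgeR without the filter, and 2 in the DESeq2 fit of all 11 libraries chosen after seeing the data. Over all genes DESeq2 called 104 higher and 123 lower there. With library size alone, the median of all genes against sham shifted to 0.208 in DMSO and 0.181 in A10i mice, the calls in DMSO went from 2215 higher and 1643 lower to 3330 higher and 708 lower, those in A10i mice from 2333 and 1546 to 3436 and 577, and Il6st passed in DMSO mice. Under it Il11ra1 turned to 0.044 in DMSO and 0.087 in A10i mice, and Lifr to 0.036 in A10i mice, all under the shift of the median. Il6ra in A10i against DMSO lay between -0.16 and 0.073 when each mouse was left out, positive without A129 (0.073) or A119 (0.032). The cause of these changes was not tested. Of all fold changes recomputed, 149 of 156 in DMSO against sham, 124 of 137 in A10i against sham and 161 of 168 in A10i against DMSO kept their direction and their side of the threshold. With 1 to 8 counts per cytokine gene in all sham libraries for Il6, Osm and Il11, depth limits those folds. No paired analysis was possible because the groups share no replicate numbers.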
